A study of Homo sapiens with 3 samples.

Results

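The genes described here encode the subunits of the transcription factor NF-kappaB and the proteins that hold it back or modulate it: NFKB1, NFKB2, REL, RELA and RELB on one side and NFKBIA, NFKBIB, NFKBIE, TNFAIP3 and BCL3 on the other. They were chosen by gene symbol, as every probe that the array annotation gives one of these names, which gave 14 probes for 10 genes among the 18851 genes with a probe. The cells were H2373, a line derived from malignant pleural mesothelioma, the tumor of the lining of the lung. They were exposed for 3 h to 36 µM H342 (the dye Hoechst 33342) or 36 µM H258 (Hoechst 33258), or left untreated, and RNA of each condition was hybridized to 1 Illumina BeadChip array. There were no replicates, so no value below has an error between samples and no p-value could be given. How long the untreated cells were kept, and in which vehicle, is not given in the sources used here. A line is a limited model of the tumor, but 8 of 12 mesothelial markers were detected on at least 1 array. These were MSLN, CALB2, WT1, KRT7, KRT8, KRT18, KRT19 and VIM, while UPK3B, LRRN4, KRT5 and PDPN were not detected.

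NF-kappaB is a dimer of Rel proteins. In resting cells the IkappaB proteins, such as those encoded by NFKBIA, NFKBIB and NFKBIE, keep the dimer in the cytoplasm, and phosphorylation of IkappaB by the IKK complex marks it for destruction and frees the dimer to enter the nucleus. NFKBIA, TNFAIP3 and several other members are themselves targets of NF-kappaB, so that their messages are part of a feedback loop. The dyes bind the minor groove of AT-rich DNA, and they differ at the terminal phenyl ring, where H342 carries an ethoxy group and H258 a hydroxyl group.

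Stretches that match the kappaB consensus, the motif that NF-kappaB binds, are shown because most members have one near their start and because several contain a run of A and T, the kind of sequence that the dyes prefer. RefSeq promoters (GRCh38.p14, 250 bases before to 50 after each annotated start) were at hand for 8 of the 10 members, with 13 annotated starts. The kappaB consensus was searched on both strands. A match was found for 7 of the 8 members and for 7.09% of all 27305 genes in the table. RELA had none in either of its windows, which says only that these letters are not there. The sequences below are written 5′ to 3′ along the gene with the match in capitals, at chr4:102501265-102501358 for NFKB1, chr2:60881482-60881573 for REL, chr14:35404776-35404875 for NFKBIA (a gene on the minus strand), chr10:102394461-102394490 and chr10:102395674-102395703 for NFKB2, chr19:38899931-38899960 for NFKBIB and chr6:137867194-137867223 for TNFAIP3.
NFKB1: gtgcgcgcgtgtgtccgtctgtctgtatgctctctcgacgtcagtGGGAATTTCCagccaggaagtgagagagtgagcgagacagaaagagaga
REL: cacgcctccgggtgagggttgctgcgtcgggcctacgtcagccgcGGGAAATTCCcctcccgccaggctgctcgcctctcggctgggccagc
NFKBIA: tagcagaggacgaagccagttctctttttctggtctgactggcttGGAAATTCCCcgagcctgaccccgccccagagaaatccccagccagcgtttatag
NFKB2, start 2: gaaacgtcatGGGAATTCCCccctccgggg
NFKB2, start 3: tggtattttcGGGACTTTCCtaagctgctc
NFKBIB: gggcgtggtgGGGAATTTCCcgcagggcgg
TNFAIP3: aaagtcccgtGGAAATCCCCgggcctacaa

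Overlapping matches were joined, which left 11 places in the member promoters, and 6 of these held at least 4 A or T in a row, against 12.2% of 2184 such places over all promoters. The first base of the match lay 49 bases before the start of NFKB1, 47 before that of REL, 81 before that of NFKBIA and 55 before that of TNFAIP3. BCL3 had a match only from 2 to 11 bases after its start. Over the whole promoter the A and T content was 38.0% for NFKBIA, 26.3% for TNFAIP3 and 21.0% for REL, against a median of 41.3% over all promoters. Only start 1 of RELA, at 48.7%, lay above that median. Runs of at least 4 A or T numbered 1 at both starts of NFKB1 and in REL, TNFAIP3 and BCL3. They numbered 7 in NFKBIA, 10 and 2 at the starts of RELA, 1 and 5 at those of NFKBIB and 6, 3 and 4 at those of NFKB2. The median over all promoters was 5. Such a match is a description of the letters, and binding was not measured.

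**Figure D1:**
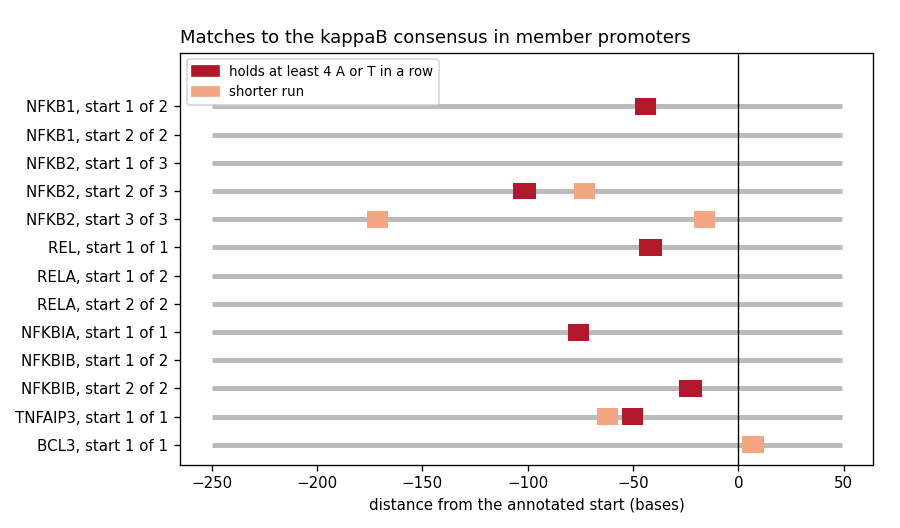
Matches to the kappaB consensus (blocks) in the 300-base RefSeq promoters of 8 members, by distance in bases from each of 13 annotated starts; dark red blocks hold at least 4 A or T in a row. Of 11 places, 6 are dark red, and all places but that of BCL3 lie before the start.

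Of the 14 probes, 11 were detected on all 3 arrays at a detection p under 0.05 and 3 on none. These 3 were both probes of REL, the Rel protein best known from lymphocytes, and 1 of the 3 probes of NFKB2, which read 128 under H342, 106 under H258 and 130.0 in untreated cells. The REL probes read 132 and 138 under H342, 131 and 113 under H258 and 125 and 137 in untreated cells, close to the array medians of 130.0, 132 and 133 in the same order. REL was thus not detectable above background and no fold is given for it. Of the other cell type markers, 2 of the 6 for leukocytes were detected. CD14 read 187 under H342, 264 under H258 and 239 in untreated cells, the same order of arrays as NFKBIA, and LYZ was detected under the dyes alone, at 168 and 161. PTPRC, CD3E, CD79A and ITGAM were not detected. Among 5 endothelial markers only PECAM1 was detected, and among 5 fibroblast markers only the receptors PDGFRB and PDGFRA. The summed signals of the mesothelial list were 71111, 70900 and 68712, of the leukocyte list 860.0, 948 and 904, of the endothelial list 696, 706 and 748 and of the fibroblast list 2314, 2207 and 1842, in the same order. Their part in the values below was not tested.

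**Figure D2:**
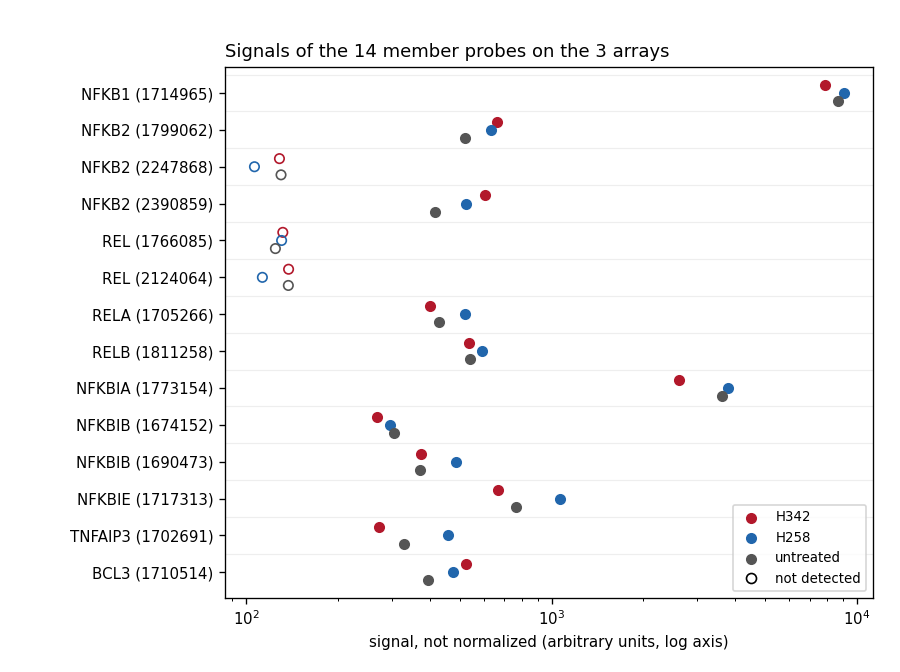
Signals of the 14 member probes, not normalized (log axis, arbitrary units), with 1 point per array for H342, H258 and untreated cells; open circles were not detected. Probe numbers are in brackets. TNFAIP3, NFKBIE, RELA and the brighter probe of NFKBIB stand out with the H258 array to the right of both others.

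Differences are given on the log2 scale after background correction and quantile normalization, with genes called at differences of 2-fold or more. Only genes detected on one or both of the compared arrays were tested in this sense. A gene with several probes was represented by its brightest. A level is the signal of 1 probe, so levels are not compared between genes. In RNA from a whole culture, fewer cells making a transcript and less of it per cell cannot be told apart. The 3 pairs of conditions were compared, and both comparisons with untreated cells use the same untreated array. As a yardstick, the robust SD of the differences over all tested genes was 0.39 for H342 against untreated cells, 0.42 for H258 against untreated cells and 0.41 for H342 against H258. Another yardstick is the disagreement between probes of the same gene: over 1781 genes with a pair of probes detected on every array, its median was 0.20, 0.22 and 0.23 in these comparisons.

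When the treated arrays were compared directly, 4 of the 5 inhibitors and modulators had log2 differences below 0 (lower under H342 than under H258). Over all tested genes 48.3% lay above 0. Of the 5, 1 passed 2-fold. Their median was -0.49, the value of NFKBIB by its brighter probe, and averaging the 2 probes of NFKBIB gave -0.35 for this gene. Of the 4 detected subunits 3 lay below 0 and 0 passed 2-fold, with a median of -0.08. TNFAIP3, which encodes the ubiquitin-editing enzyme A20 that switches NF-kappaB signaling off, was 2.09-fold lower under H342. Short of the threshold, NFKBIE had a fold of 1.66 and NFKBIA of 1.35 in the same direction, while BCL3 had a log2 difference of 0.23 and NFKB2 of 0.11. TNFAIP3 was the only member called, 1 of 9 tested, where 7.43% of 10296 genes were called in either direction, 3.74% higher and 3.69% lower. At 1.5-fold, TNFAIP3 and NFKBIE were lower, 2 of 9, and 0 were higher, against 10.3% of all tested genes lower, 11.5% higher and 21.9% in either direction. At 3-fold no member was called, where 1.49% of genes were. The median of the 9 members was -0.44, beside -0.01 over all tested genes.

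TNFAIP3 (chr6:137866349-137883312, GRCh38.p14) had a signal of 271 under H342, 458 under H258 and 329 in untreated cells. The H258 array was the highest and the H342 array the lowest, an order that the signals of NFKBIE, NFKBIA, RELA, RELB and NFKB1 shared. After normalization TNFAIP3, NFKBIE, NFKBIA and RELA kept this order, while RELB and NFKB1 did not. The log2 difference of TNFAIP3 between the dyes was -1.06, lower than all but 3.12% of tested genes. The robust SD among genes of like level was 0.49. The call rests on the background correction: the log2 difference was -0.73 without it, -0.93 with an offset of 50 and -0.72 in the deposited value table, all short of 2-fold. The direction was the same in all 6 ways of processing.

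NFKBIE (chr6:44258166-44265551), which encodes IkappaB-epsilon, had a signal of 666 under H342, 1067 under H258 and 766 in untreated cells, with the H258 array well above both others. Its log2 difference between the dyes was -0.73, and between -0.78 and -0.59 over the ways of processing. NFKBIA (chr14:35401513-35404749), which encodes IkappaB-alpha, the inhibitor that is rebuilt within the feedback loop, had 2623 under H342, 3794 under H258 and 3621 in untreated cells. Here the H342 array stood apart below the others. The log2 difference of NFKBIA was -0.44 against H258 and -0.39 against untreated cells, where genes of like level had robust SDs of 0.29 in both comparisons. CD14, the leukocyte marker, had a log2 difference of -0.97 between the dyes. Its signals of 187 and 264 stood beside lowest detected signals of 157 and 160.0. The median of the 2 tested leukocyte markers was -0.39 between the dyes, and -0.20 without background correction. The part of CD14 in these values was not tested.

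NFKBIB, which encodes IkappaB-beta, had 2 probes that did not move alike. The brighter read 374 under H342, 488 under H258 and 371 in untreated cells. The dimmer read 267, 295 and 305 in the same order. Before normalization H258 was the highest array for the brighter probe and untreated cells for the dimmer. After it the log2 differences of the brighter and the dimmer probe were -0.49 and -0.20 between the dyes and 0.60 and 0.02 between H258 and untreated cells. For H258 against untreated cells the gap between the probes was near 0.58, the 90th percentile of such gaps over the array.

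**Figure D3:**
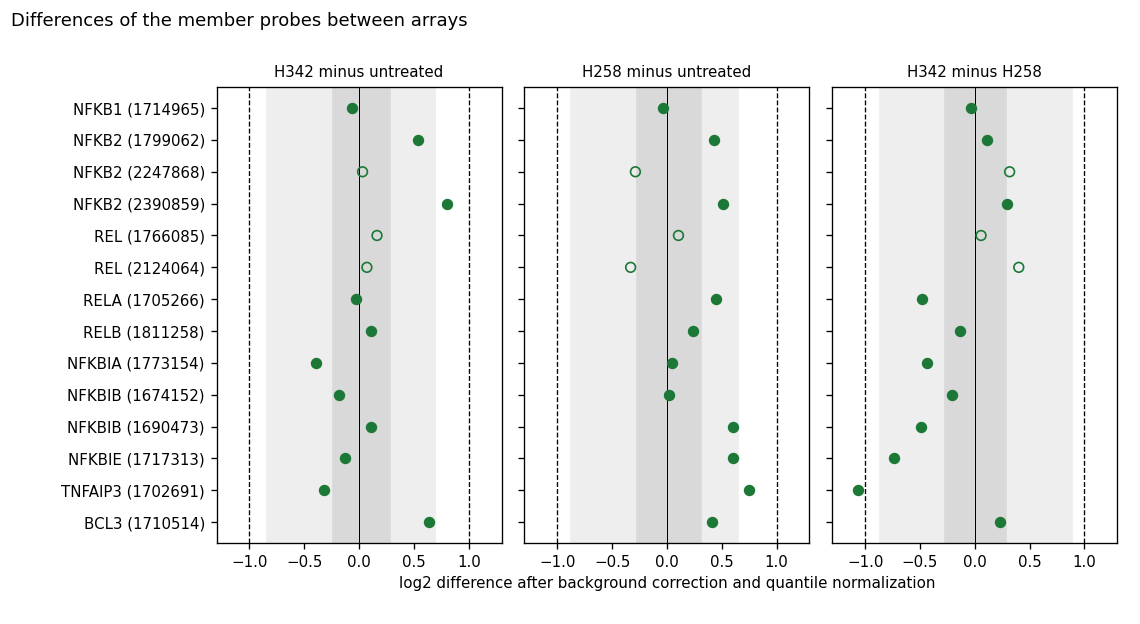
Log2 differences of the 14 member probes (points; open where detected on no array) for H342 minus untreated, H258 minus untreated and H342 minus H258, 1 array per condition. Dark and light grey bands hold the middle 50% and 90% of all tested genes, and dashed lines mark 2-fold. TNFAIP3 at -1.06 in the panel of the dyes is the only point past a dashed line.

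Between the dyes 0 of 4 detected subunits reached 1.5-fold, where 21.9% of all tested genes did in either direction. RELA, the main activating subunit, had a signal of 398 under H342, 522 under H258 and 427 in untreated cells, and a log2 difference between the dyes of -0.48. RELB, the partner of p52 in the alternative pathway, had 537, 590.1 and 539 in the same order and -0.13. NFKB1, which encodes the precursor of p50, had 7856, 9048 and 8705 and a difference of -0.03 after normalization, which stood at -0.21 without normalization between arrays. Of these 3, only RELA differed by more than the robust SD of genes of like level, 0.44.

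NFKB2 and BCL3 ran the other way and were highest under H342. NFKB2, which encodes the precursor of p52, had a brighter probe with 662 under H342, 634 under H258 and 521 in untreated cells. Its second detected probe had 607, 525 and 415. Both put the arrays in the same order, H342 above H258 above untreated. Against untreated cells the log2 differences of the probes were 0.54 and 0.80 under H342 and 0.43 and 0.51 under H258. BCL3, an IkappaB-like protein that binds p50 and p52 dimers in the nucleus and can turn them into activators, had 523, 475 and 395. It had a log2 difference of 0.64 under H342, higher than 93.8% of tested genes, and of 0.41 under H258. Between the dyes, NFKB2 at 0.11 and BCL3 at 0.23 stayed within the robust SDs of genes of like level, 0.43 and 0.42.

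Against untreated cells, H258 left 8 of 9 detected members above 0, where 55.4% of all tested genes were above 0, and none reached 2-fold. The exception was NFKB1 at -0.04, which turned to 0.06 without normalization between arrays. Of the 10550 genes tested 4.11% were called in either direction, 0.768% higher and 3.35% lower. At 1.5-fold 3 of 9 members were higher, TNFAIP3 at 0.75, NFKBIE at 0.61 and NFKBIB at 0.60, against 7.22% of all tested genes higher, 11.6% lower and 18.8% in either direction. NFKBIB rests on its brighter probe. Over the 6 ways of processing TNFAIP3 lay between 0.52 and 0.75 and NFKBIE between 0.49 and 0.61. The median of the inhibitors and modulators was 0.60 over 5 genes and that of the subunits 0.33 over 4, beside 0.06 over all tested genes. The 0.60 is the value of NFKBIB by its brighter probe, and averaging its 2 probes gave 0.31 for this gene. The comparison of the dyes uses the same H258 array, so the high H258 values enter both.

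H342 against untreated cells gave no common direction. Of 9 members 4 were above 0 and 5 below, the median was -0.03 beside 0.03 over all tested genes, and none was called, where 4.86% of 10581 genes were, 1.25% higher and 3.61% lower. Only BCL3 reached 1.5-fold, and it was higher, 1 of 9 or 11.1%. Of all tested genes 7.95% were higher, 9.84% lower and 17.8% in either direction. The members' share rests on 1 gene and lay above the first of these shares and below the last. TNFAIP3 had a log2 difference of -0.32, NFKBIE of -0.13, RELB of 0.11 and RELA of -0.03. NFKBIA at -0.39 was the lowest of the 9, with a range from -0.48 to -0.35 over the ways of processing.

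**Figure D4:**
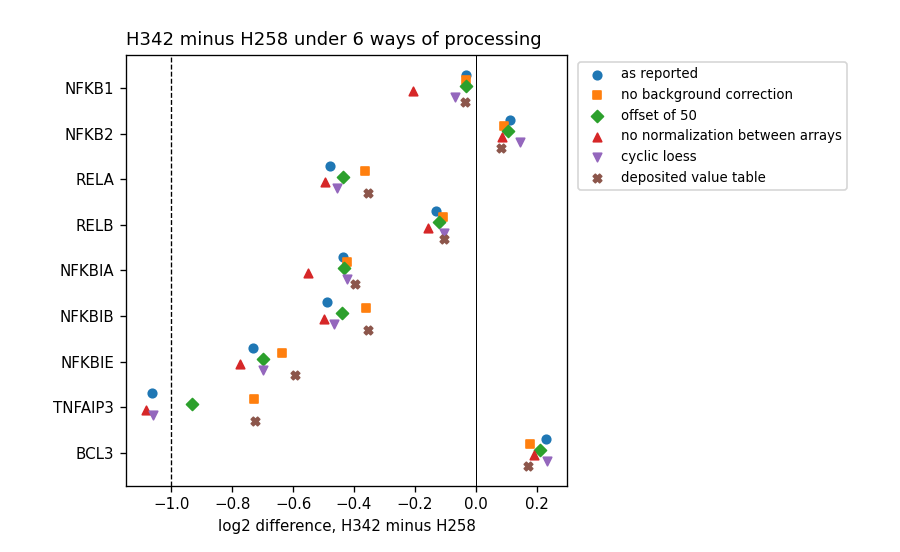
Log2 difference between H342 and H258 (horizontal axis) of the 9 detected members, by their brightest probe, under 6 ways of processing the same arrays (symbols); the dashed line marks 2-fold lower. TNFAIP3 lies past the line in 3 of 6, and no member changes sign.

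Other genes of the pathway were set beside the members from lists of named genes. Of the other IkappaB-family genes NFKBID, NFKBIZ and NFKBIL1, only NFKBIZ was detected. NFKBIZ, a nuclear IkappaB that is induced by inflammatory signals, had 578 under H342, 693 under H258 and 493 in untreated cells, with log2 differences of 0.38 and 0.65 against untreated cells and -0.27 between the dyes. It shared with TNFAIP3 and NFKBIE a highest value under H258.

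Of 6 IKK subunits and IKK-related kinases and their scaffold, 2 were called under H258, both lower, and 0 under H342 or between the dyes. Over all tested genes 3.35% were called lower under H258. In either direction 4.11% were called under H258, 4.86% under H342 and 7.43% between the dyes. TBK1, an IKK-related kinase, had 885 under H342, 569.9 under H258 and 1413 in untreated cells, a log2 difference of -1.44 under H258 and -0.66 under H342. TANK, a protein that binds TBK1, had -1.29 and -0.56 in the same order, so both stood lowest under H258, where TNFAIP3 and NFKBIE stood highest.

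Among receptors and adaptors that signal to IKK, 1 of 22 tested genes was higher and 1 lower under H342, and 0 of 23 were higher and 2 lower under H258, where 4.86% and 4.11% of all tested genes were called. None of these calls held without background correction or in the deposited value table. TRAF6, a ubiquitin ligase of the interleukin-1 and Toll-like receptor pathways, had 125 under H342, where it was not detected, 235 under H258 and 215 in untreated cells. A gene not detected on an array has only a bound there, which holds on the background-corrected scale alone. On that scale TRAF6 was at least 1.87-fold lower under H342 than in untreated cells and at least 2.38-fold lower than under H258. Its log2 differences were -0.73 and -0.90 without background correction and -0.83 and -1.02 in the deposited value table. Between the dyes TRAF6 was the 1 gene called of 23 tested, against 7.43% of all tested genes. That call was lost without background correction and held in the deposited value table. TRAF5, an adaptor of TNF receptor family members, had a log2 difference of 1.26 under H342, which was 0.62 without background correction. Under H258 the receptor TLR4 was at least 2.13-fold lower on the corrected scale, with a log2 difference of -0.66 without correction, and the ubiquitin ligase BIRC2 had -1.05, or -0.97 in the deposited value table. Among ubiquitin editors and other brakes, 1 of 13 tested genes was called under H342 and 0 under H258, against 4.86% and 4.11% of all tested genes. ZC3H12A, a ribonuclease that cuts inflammatory messages, had 545 under H342, 294 under H258 and 281 in untreated cells, the opposite order of dyes from TNFAIP3. Its log2 difference under H342 against untreated cells was 1.47. This call held without background correction, at 1.04, and in the deposited value table, at 1.02. Between the dyes ZC3H12A was the 1 gene called of 13 tested, against 7.43% of all tested genes. That log2 difference was 1.27, which was 0.92 without background correction and 0.89 in the deposited value table, short of 2-fold. Of 12 tested coactivators and corepressors of RELA, 1 was called under H342, against 4.86% of all tested genes. It was SIRT1 at -1.05, a call lost without background correction at -0.78 and in the deposited value table at -0.76.

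The classical target genes of NF-kappaB were counted without the members, a split made after their values were seen. Of 30 tested, 6 were lower and 0 higher under H342 than under H258, where 3.69% of all tested genes were lower, and their median was -0.16 beside -0.01. The median was -0.07 without background correction and -0.08 in the deposited value table. For the whole list with the members, 7 genes were called between the dyes, and 3 under either of these settings. IER3, an early response gene that modulates cell death, had 2264 under H342, 9886 under H258 and 7734 in untreated cells, a log2 difference between the dyes of -2.04. The cytokine IL1B had -1.31, or -0.90 without background correction, and for both the arrays stood in the order of TNFAIP3. The inducible cyclooxygenase PTGS2 and the chemokine CXCL2 were not detected under H342. On the background-corrected scale PTGS2 was at least 9.16-fold lower and CXCL2 at least 2.45-fold lower there than under H258, and without correction their log2 differences were -2.01 and -0.67. Against untreated cells, 1 of 29 targets was higher and 3 were lower under H342, where 1.25% and 3.61% of all tested genes were. Under H258 0 of 29 were called, where 4.11% of all tested genes were. There 21 of 29 lay above 0, against 55.4% of all tested genes, and the median was 0.29 beside 0.06 over all tested genes. GADD45B, a regulator of stress kinases, was the target higher under H342, at 1.32. Housekeeping genes had 0 called of 9 in each comparison. Of all tested genes 4.86% were called under H342, 4.11% under H258 and 7.43% between the dyes. Housekeeping medians were -0.10 for H342 and -0.03 for H258 against untreated cells and -0.08 between the dyes.

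**Figure D5:**
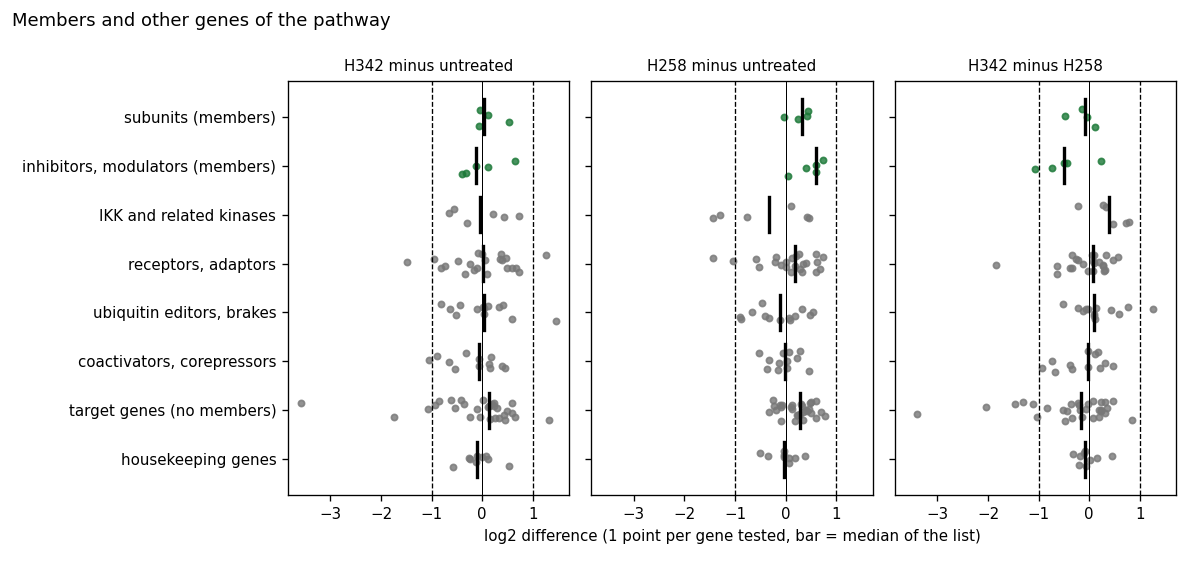
Log2 differences of the members (green) and of the other pathway lists (grey), 1 point per gene tested and a bar for each list's median, for H342 minus untreated, H258 minus untreated and H342 minus H258; dashed lines mark 2-fold. In the panel of the dyes the median of the inhibitors and modulators is -0.49, the value of the brighter NFKBIB probe, and PTGS2 is the grey point farthest to the left.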

How the data were processed

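Signal intensities, deposited by the authors without normalization, are averages over a probe's beads, from BeadStudio 3.1.3.0 according to the submitters' processing notes, and the labels mention no background subtraction. The deposited detection p-value places each signal among the negative controls. A deposited table of intensities, normalized by the authors between arrays in a way that the sources do not name, served as an alternative. R 4.3.3, limma 3.58.1, Python 3.11.15, numpy 2.4.6, pandas 2.3.3 and matplotlib 3.10.9 were used. Background was corrected with neqc (offset 16), followed by quantile normalization and log2. Of 48798 probes, 28093 had 1 gene symbol, 13 several and 20692 none. The array type in the file is an earlier version than in the study's methods, and the annotation is of the earlier. Detected probes (detection p under 0.05) numbered 15248 for H342, 15115 for H258 and 16169 for untreated cells. An undetected side was set to the lowest detected level of its array, or to its own level if higher, for a lower bound. With 1 array per condition, all on 1 BeadChip, the number of arrays limits the precision and no test was run. The fold calculation was checked on simulated arrays with planted changes larger than any member difference, so the check does not cover differences of the members' size. The robust SD of genes of like level was taken over the 501 tested genes nearest in level. Gene lists held 157 genes, of which 147 had a probe. Genes named outside the members were the called ones of each list, at most 4 by size, or else those of largest difference. Members and lists were chosen with earlier results of these data known. Alternatives were no background correction, an offset of 50, no normalization, cyclic loess, the deposited table, other detection filters, folds of 1.5 and 3, and averaging a gene's detected probes.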

Additional observations from a re-analysis of the deposited data

How the results depend on the processing

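No paired analysis was possible because each condition has 1 array. Members called at 2-fold numbered 0 for each dye against untreated cells and 1, TNFAIP3, between the dyes. Between the dyes the count was 0 without background correction, with an offset of 50, in the deposited value table and at 3-fold, and 2 at 1.5-fold. At 1.5-fold it was 1 for H342 and 3 for H258 against untreated cells. All other settings left these counts as they were. All 180 recomputed member differences, those of the undetected REL among them, moved by less than the robust SD of their comparison. This limit, 0.39 to 0.42, is wide and does not show that a value is stable. Within it TNFAIP3 moved from -1.06 to -0.72 between the dyes and lost its call. NFKBIB under H258 moved from 0.60, past 1.5-fold, to 0.31, short of it, when its 2 probes were averaged. Of the list counts 141 stayed within 1.5 times and 39 did not. Over all genes, 81 were higher and 353 lower under H258, against 3 and 109 without background correction, 12 and 209 with an offset of 50 and 3 and 85 in the deposited value table. Under H342, 132 were higher and 382 lower, against 26 and 146 without background correction and 23 and 140 in the deposited value table. Between the dyes, 385 were higher and 380 lower under H342, against 136 and 157 without background correction and 110 and 152 in the deposited value table. Signals near the lowest detected ones, 157, 160.0 and 156 under H342, under H258 and in untreated cells, limit what can be measured of TRAF6, TRAF5, TLR4 and CXCL2.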
